A study of Mus musculus with 3 samples.

Results

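Amino acid transporter genes of 6 solute carrier families were read in mouse cells sorted from lymph nodes that drained melanomas. The members are the genes of the deposited count table whose symbols belong to the families Slc1, Slc3, Slc7, Slc36, Slc38 and Slc43, chosen by symbol and without regard to their values. There are 39 of them among 17857 genes, with 6 in Slc1, 2 in Slc3, 13 in Slc7, 4 in Slc36, 11 in Slc38 and 3 in Slc43. The series holds 1 group of 3 libraries, here called replicates 1, 2 and 3, and no control group. Per the labels, B16F10 melanoma cells were implanted in both thighs of C57BL/6J mice, which then received no treatment. The draining nodes were taken at day 14, pooled, and sorted for cells without CD11c that carried Ly6c and c-kit, and a stranded kit for low input turned 8 ng of their RNA into each library. The series' design text also names public data on type 1 dendritic cells, not analysed here. The number of mice per pool is not given in the sources used here, nor is their age, and the spread between the 3 libraries may be technical.

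Amino acids cross membranes on carriers that differ in substrate, driving force and location. Carriers of Slc1 and Slc38 use the sodium gradient or exchange neutral amino acids, and several of them move glutamine. Most light chains of Slc7 reach the cell surface only as a pair with a heavy chain of Slc3, while the cationic carriers of Slc7 work alone. The Slc36 family includes proton-coupled carriers, some of them at the lysosome, and the amino acid carriers of Slc43 let large neutral amino acids through without exchange. Tryptophan, the substrate of the enzyme IDO named in the title of the series, enters lymphocytes mainly through the pair of Slc7a5 and Slc3a2. Proliferating lymphocytes depend on glutamine, leucine and arginine uptake, which feeds the growth kinase mTOR.

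Library totals ran from 9077195 to 13885509 counts. Levels are given as normalised read counts (CPM), or as CPM per kilobase of the deposited gene length where genes are compared with each other, and as mean ± SD over the 3 libraries (n = 3). edgeR's quasi-likelihood test asked for each gene whether its level differed from 1 CPM and from 50 CPM, levels above the means of 17.9% and 75.1% of the genes tested, with p-values adjusted over all 15490 of them. Of cell type marker lists, T cell genes had the highest sums, 3817, 4689 and 4769 CPM over 10 genes in replicates 1, 2 and 3. The 4 genes that defined the sort summed to 67.4, 174 and 88.8 CPM. The lists differ in size, and 8 erythroid genes reached 3770 CPM in replicate 1, against 51.9 and 265 CPM in replicates 2 and 3. Among the sort genes, Kit was read at 9.83, 5.35 and 5.92 CPM. Ly6c2 was read at 11.5, 121.2 and 41.2 CPM, and Ly6c1 at 19.1, 4.28 and 17.6 CPM. The sum of the sort genes also holds Itgax, which encodes the CD11c that was sorted against, at 26.95, 43.2 and 24.0 CPM. The transporter levels are therefore those of libraries in which T cell transcripts were abundant, and in replicate 1 erythroid transcripts also. Fewer cells of a type and less RNA per cell cannot be told apart in such bulk libraries. Olfactory receptor genes, which leukocytes rarely use, served as a measure of background. The 95th percentile of 569 of them lay at 0.905, 0.151 and 0.320 CPM per kilobase in replicates 1, 2 and 3, so that replicate 1 carried the most.

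Of the 39 members, 37 had the minimum of 10 counts in sum and were tested. In edgeR's test 23 lay above 1 CPM, where 68.6% of all genes tested did, and 21 of these also exceeded the 95th percentile of olfactory receptor genes in each library, where 66.4% of all genes tested met both conditions. The second condition was added after the values were seen. Against 50 CPM, 7 lay above, where 19.9% of all genes did, 27 lay below, where 66.7% did, and 3 were not separated from it. At each reference the members' shares thus lay near those of all genes, and the differences were not tested. The median member had a mean of 4.76 CPM, against 7.26 CPM over all 17857 genes. Without replicate 1 the count below 50 CPM was 16 of 26 members tested, and without replicate 3 it was 15 of 37.

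Per kilobase the first 7 members were Slc38a2, Slc1a5, Slc38a1, Slc3a2, Slc38a10, Slc43a2 and Slc7a1, the same 7 that lay above 50 CPM. They held 61.7%, 76.8% and 75.3% of the summed CPM per kilobase of all members in replicates 1, 2 and 3. The Slc38 family alone held 37.9%, 44.2% and 44.7% of that sum, and Slc7, with the most members, 18.3%, 16.5% and 16.3%.

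**Figure D1:**
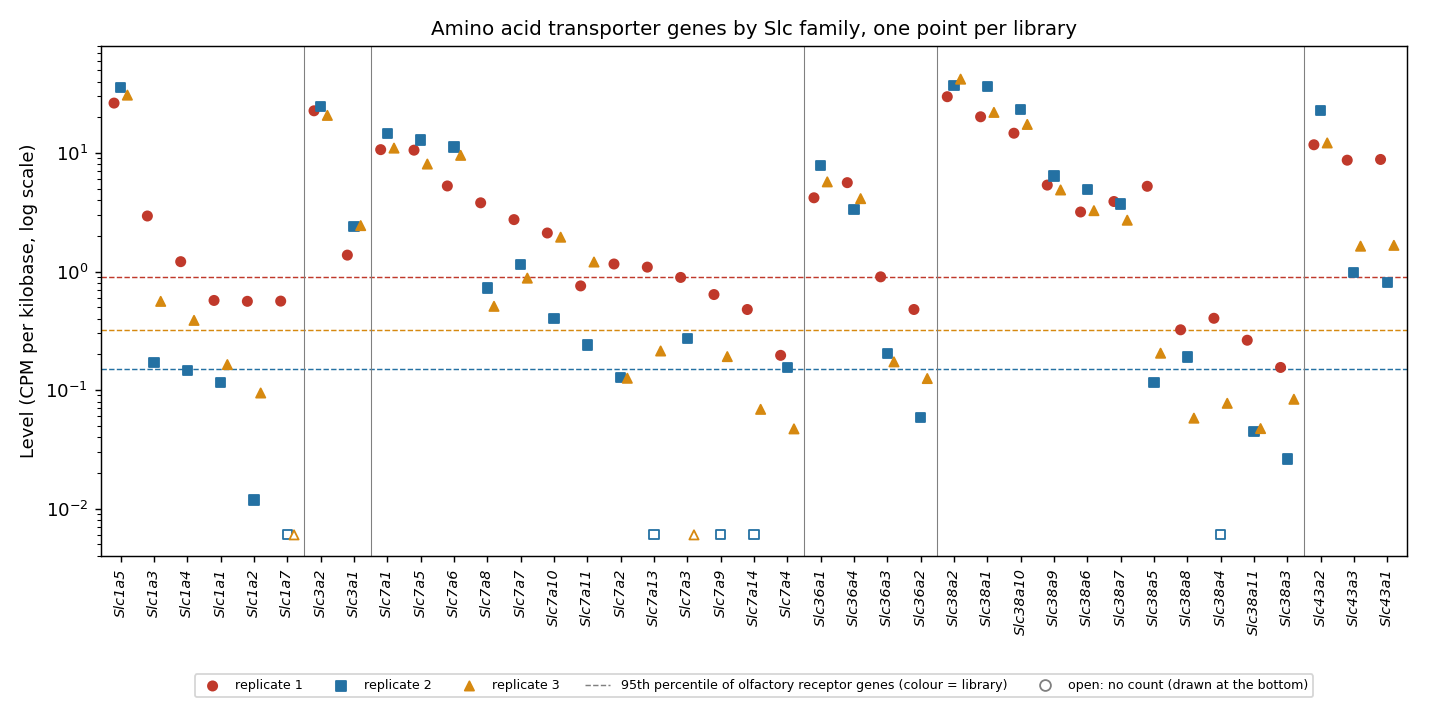
Level of each of the 39 genes in CPM per kilobase on a log axis, by Slc family, with 1 point per library, open points for no count, and dashed lines at the 95th percentile of olfactory receptor genes in the library of that colour. The points of the 7 highest members lie close together, from 10.7 CPM per kilobase for Slc7a1 to 41.95 for Slc38a2, while among low members replicate 1 often stands apart.

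Slc38a2 encodes SNAT2, a sodium-coupled carrier of small neutral amino acids that cells raise when amino acids run short. Its level in replicates 1, 2 and 3 was 138, 170.4 and 194 CPM, which is 36.2 ± 6.08 CPM per kilobase. Slc38a1, which encodes the related glutamine carrier SNAT1, was read at 169.5, 303 and 184.5 CPM, or 26.1 ± 8.72 CPM per kilobase, and replicate 2 was highest. Both lay above 50 CPM, by 1.74 ± 0.16 (SE) log2 units for Slc38a2 (edgeR adjusted p = 1.49e-05) and 2.13 ± 0.20 for Slc38a1 (1.22e-05). The order of the 2 genes depended on length: in CPM Slc38a1 led by 0.35 log2 units on average, and per kilobase Slc38a2 led by 0.56, 0.03 and 0.93. The mean difference of 0.51 ± 0.45 (SD) log2 units was not separated from 0 by sign flips over the libraries (exact permutation p = 0.25; no lower p can be reached with 3). Both genes lie on chromosome 15, Slc38a1 at 96571418 to 96643438 and Slc38a2 at 96687392 to 96699728 (GRCm38, as are all positions here).

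Slc1a5, the exchanger ASCT2 that brings glutamine into activated T cells, was read at 72.7, 97.9 and 84.8 CPM. Per kilobase it came to 30.9 ± 4.57 and stood second, 0.23 ± 0.20 log2 units below Slc38a2 within libraries (exact permutation p = 0.25). It lay 0.77 ± 0.15 (SE) log2 units above 50 CPM (edgeR adjusted p = 0.00152). Slc38a10, a carrier of glutamine and other amino acids inside cells, was read at 79.5, 125.3 and 94.3 CPM, and it also lay above 50 CPM (edgeR adjusted p = 6.79e-04). The 3 libraries of each gene lay within a factor of 2, with replicate 1 lowest for all 4 genes described so far.

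The other Slc38 members lay lower. Slc38a9, a lysosomal carrier that reports arginine to mTORC1, was read at 47.8, 56.9 and 43.4 CPM and was the member nearest 50 CPM (edgeR adjusted p = 0.915). Slc38a7, which releases glutamine from lysosomes, was read at 12.8, 12.2 and 8.89 CPM. Slc38a6 was read at 9.41, 14.6 and 9.65 CPM. These 3 genes were even between libraries and lay above 1 CPM, and Slc38a7 and Slc38a6 below 50 CPM (edgeR adjusted p = 3.99e-04 and 4.50e-04). Slc38a8 and Slc38a4 had 17 and 19 counts in all libraries together and were not separated from 1 CPM. Slc38a3 and Slc38a11 had 8 and 6 counts, too few to be tested.

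Heavy and light chains were both present. Slc3a2, the heavy chain CD98 that carries the Slc7 light chains to the surface, was read at 67.1, 73.3 and 61.4 CPM, a narrow range. It lay 0.43 ± 0.14 (SE) log2 units above 50 CPM (edgeR adjusted p = 0.021), but not without replicate 2 (0.073) or without replicate 3 (0.0785). Slc7a5, the light chain LAT1 that imports leucine, phenylalanine, tryptophan and kynurenine, was read at 37.1, 45.1 and 28.3 CPM. It was not separated from 50 CPM (edgeR adjusted p = 0.0523), and lay below it without replicate 2 (0.0129), with no filter on low counts (0.04), with robust empirical Bayes (0.0378) and in limma (0.0239). Per kilobase Slc3a2 exceeded Slc7a5 in each library, by 1.10, 0.95 and 1.36 log2 units, a mean of 1.14 ± 0.21 (SD), or 2.20-fold (exact permutation p = 0.25). Slc3a2 spans 8706882 to 8723369 on chromosome 19 and Slc7a5 121881146 to 121907686 on chromosome 8.

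Among the other partners of Slc3a2, Slc7a6 came close to Slc7a5. Slc7a6, the light chain y+LAT2 that exchanges cationic for neutral amino acids, was read at 19.7, 41.9 and 35.6 CPM. Per kilobase Slc7a5 exceeded it by 1.00 and 0.20 log2 units in replicates 1 and 2 and lay 0.24 below it in replicate 3, so these 2 neighbours in level did not differ beyond their spread (mean 0.32 ± 0.63, exact permutation p = 0.75). Slc7a6 lay below 50 CPM (edgeR adjusted p = 0.0377), but not without replicate 1 (0.0738), without replicate 3 (0.087) or with mitochondrial genes left out (0.108). Its relative Slc7a7, or y+LAT1, which macrophages and epithelia use, was read at 6.87, 2.85 and 2.20 CPM. Slc7a6 exceeded Slc7a7 by 0.94, 3.29 and 3.42 log2 units per kilobase, with replicate 1 the smallest. Slc7a7 shares 7.0% of its exon bases in GENCODE M21 with Oxa1l on the other strand, which was read at 33.8, 49.5 and 36.8 CPM, and the strand setting of the counting is not given in the sources used here.

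Slc7a8, the light chain LAT2, was uneven. It was read at 15.3, 2.92 and 2.05 CPM, highest in replicate 1, and the lead of Slc7a5 over it was 1.47 log2 units per kilobase there against 4.13 and 3.96 in replicates 2 and 3. Slc7a11, the light chain xCT that imports cystine, was read at 6.97, 2.21 and 11.1 CPM, highest in replicate 3 and lowest in replicate 2. It lay above 1 CPM (edgeR adjusted p = 4.35e-05) and below 50 CPM (0.00235). In replicate 1 its 0.756 CPM per kilobase lay under the 95th percentile of olfactory receptor genes there, 0.905. Neutrophil markers had the same order of libraries as Slc7a11, at 180, 76.0 and 718 CPM summed over 7 genes. All 7 were highest in replicate 3, and Ly6g was at 0 in replicates 1 and 2. Other genes had this order of libraries too, among them Atf4 and Sesn1. The part of the neutrophil markers in the level of Slc7a11 was not tested.

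Promoter sequence adds a property that the choice of members did not use. The factor ATF4, with a C/EBP partner, is known to bind the letters TTGCATCA (TGATGCAA on the other strand) and to raise genes when amino acids are scarce. RefSeq windows of GRCm38.p6, from 250 bases before to 50 after a start site, were at hand for 29 members. These letters stood on either strand in the windows of 3 of them, Slc7a11, Slc1a4 and Slc7a7, and in those of 1.03% of all 27025 genes with a window. The stretches are shown because they hold the matches, in capitals, 5′ to 3′ on the strand of the gene, which is the minus strand for each.
Slc7a11, chr3:50443623-50443709: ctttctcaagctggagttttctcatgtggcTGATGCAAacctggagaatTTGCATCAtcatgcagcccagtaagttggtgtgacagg
Slc1a4, chr11:20332700-20332727: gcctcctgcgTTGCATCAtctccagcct
Slc7a7, chr14:54417928-54417955: acctagaagcTGATGCAAcagcttcccc

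Slc7a11 held 2 matches, in opposite directions and 11 bases apart, at 66 and 47 bases before a start site inside the span of the gene. The match of Slc1a4 began 4 bases before its start site. That of Slc7a7 began 1 base before 1 start site and 243 bases before another. None of the 3 genes was abundant, and each had a mean under 10 CPM. The E-box CACGTG stood in the windows of 6 members, Slc1a7, Slc7a14, Slc36a1, Slc38a5, Slc38a7 and Slc43a1, and in those of 8.09% of all genes. The CLEAR element of lysosomal genes, a longer palindrome that holds the E-box, stood in none of the 29 and in 0.37% of all genes. A match describes the sequence and is no measure of binding.

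Slc7a10, the light chain asc-1 that carries small neutral amino acids, was read at 4.12, 0.785 and 3.80 CPM. It lay above 1 CPM (edgeR adjusted p = 0.0269), but not without replicate 1 (0.111), without replicate 3 (0.305) or in limma (0.0773). Lrp3, which overlaps 17.9% of its exon bases on the other strand, was scarce, at 0.211, 0.214 and 0.152 CPM. Slc3a1, the heavy chain rBAT of kidney and gut, was read at 3.17, 5.49 and 5.62 CPM, above 1 CPM (edgeR adjusted p = 1.09e-04). Of its exon bases, 26.5% are shared with Prepl on the other strand, which was read at 21.4, 26.5 and 29.8 CPM in the same order of libraries. How many reads of Slc3a1 come from Prepl was not tested. The light chains that pair with Slc3a1 were scarce: Slc7a9 had 12, 0 and 5 counts and Slc7a13 had 22, 0 and 6.

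**Figure D2:**
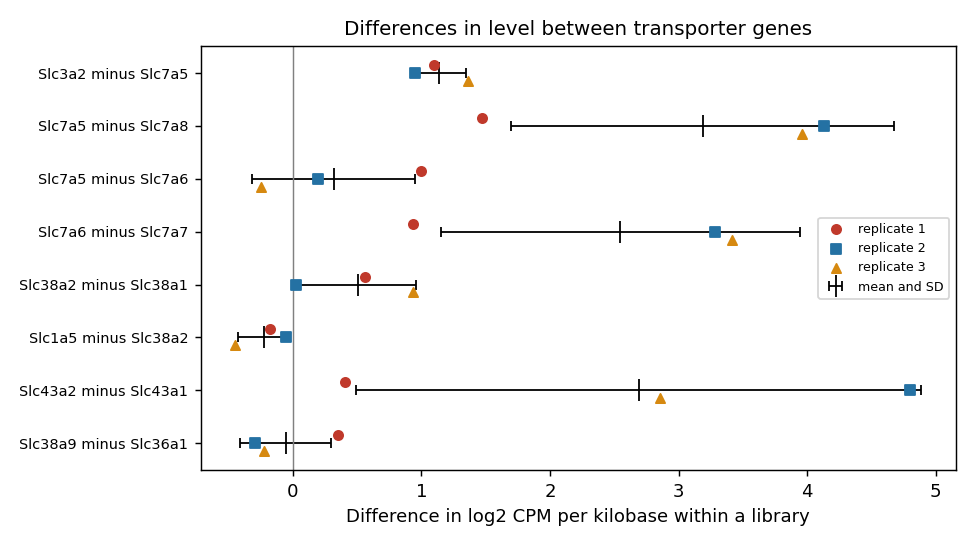
Differences in log2 CPM per kilobase between 8 pairs of transporter genes within each library, with 1 point per library and the mean and SD as a bar. Slc3a2 lies about 1 log2 unit above Slc7a5 in each library, whereas the leads of Slc7a5 over Slc7a8, Slc7a6 over Slc7a7 and Slc43a2 over Slc43a1 are smallest in replicate 1.

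The 8 pairs compared per kilobase had adjusted p-values from 0.333 to 1.00, since 3 libraries cannot pass the threshold. In 6 of the 8 pairs the 3 libraries had the same sign.

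Of the cationic carriers, Slc7a1, the arginine and lysine carrier CAT-1, was read at 76.6, 105 and 78.9 CPM and lay 0.79 ± 0.16 (SE) log2 units above 50 CPM (edgeR adjusted p = 0.00149). Slc7a2, or CAT-2, which supplies arginine in activated macrophages, was read at 9.09, 0.998 and 0.987 CPM. For Slc7a1 replicate 2 was highest and the others were close, while for Slc7a2 replicate 1 stood apart. Slc7a2 lay above 1 CPM (edgeR adjusted p = 0.0165), but not without replicate 1 (0.969) or in limma (0.177). Slc7a3, or CAT-3, had 20, 9 and 0 counts, Slc7a14, a lysosomal cationic carrier, had 40, 0 and 8, and Slc7a4, which overlaps P2rx6 on the other strand over 13.3% of its exon bases, had 6, 7 and 2. None of these 3 was separated from 1 CPM.

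The Slc43 genes parted. Slc43a2, the uniporter LAT4 for leucine and other large neutral amino acids, was read at 84.9, 164.2 and 87.9 CPM and lay 1.17 ± 0.21 (SE) log2 units above 50 CPM (edgeR adjusted p = 8.40e-04). Slc43a1, the related LAT3, was read at 25.8, 2.35 and 4.86 CPM. Per kilobase Slc43a2 led Slc43a1 by 0.41, 4.80 and 2.86 log2 units. Slc43a3, a family member that carries purine bases and not amino acids, was read at 22.6, 2.57 and 4.25 CPM, in the same order of libraries as Slc43a1. Slc43a1 and Slc43a3 are neighbours on chromosome 2, at 84838855 to 84863586 and 84936545 to 84958509, and both were highest in replicate 1. Both lay below 50 CPM (edgeR adjusted p = 0.0203 and 0.0137), calls that were lost with robust empirical Bayes (0.171 and 0.116), and for Slc43a1 also with edgeR's own expression filter (0.0525).

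The 4 Slc36 genes lay below 50 CPM. Slc36a1, the proton-coupled carrier PAT1 found on lysosomes, was read at 22.1, 41.3 and 30.1 CPM (edgeR adjusted p = 0.0209, 0.0966 without replicate 3 and 0.0573 with mitochondrial genes left out). Per kilobase it was level with Slc38a9, the other lysosomal carrier of the mTORC1 branch, with differences of 0.35, -0.29 and -0.23 log2 units (Slc38a9 minus Slc36a1, exact permutation p = 1.00). Slc36a4, a high-affinity carrier of proline and tryptophan, was read at 10.9, 6.42 and 7.98 CPM. Slc36a2 and Slc36a3 had 17 and 24 counts in all libraries together and were not separated from 1 CPM.

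The Slc1 family held 1 abundant member and 5 that were low or uneven. Slc1a4, or ASCT1, a carrier of serine and alanine, was read at 4.76, 0.571 and 1.52 CPM and was not separated from 1 CPM (edgeR adjusted p = 0.151, and 0.0211 without replicate 2). Slc1a3, the glutamate carrier GLAST of glia that macrophages can use, was read at 12.4, 0.713 and 2.35 CPM and lay above 1 CPM (0.00298), but not without replicate 1 (0.497). Slc1a2, the glutamate carrier of astrocytes, was read at 6.76, 0.143 and 1.14 CPM, was not separated from 1 CPM (edgeR adjusted p = 0.14), and lay above it without replicate 2 (0.00109). Its deposited length is the longest of the members, and per kilobase it did not exceed the 95th percentile of olfactory receptor genes in any library. The same held for Slc1a1, read at 2.11, 0.428 and 0.608 CPM and overlapped by 4430402I18Rik on the other strand over 31.9% of its exon bases, and for Slc1a7, which had 16 counts in replicate 1 and 0 in the others, where a count of 0 allows up to 0.214 and 0.228 CPM.

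A gene was called led by a library that had at least 10 counts and at least 3 times the mean CPM of the others. Replicate 1 led 17 of the 37 members tested, where it led 22.4% of all genes tested, and the other libraries led none, where replicate 2 led 0.994% and replicate 3 led 0.865% of all genes. Of the 17 members, 9 had under 10 counts in replicates 2 and 3 together, so they were tested only through the library that led them. Among genes with at least 10 counts in replicates 2 and 3 together, a limit added after the values were seen, replicate 1 led 8 of 26 members and 12.8% of all genes. The 17 are thus no independent support for a pattern of the members. With at least 2 times in place of 3, replicate 1 led 18 members and replicate 3 led 1. Of the 17, a group of 9 did not exceed the 95th percentile of olfactory receptor genes in replicate 1. The other 8, Slc1a3, Slc1a4, Slc7a2, Slc7a8, Slc7a13, Slc38a5, Slc43a1 and Slc43a3, did. Genes led by replicate 1 and over that percentile there made up 9.79% of all genes tested, and of all genes led by replicate 1, 43.7% exceeded it.

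Slc38a5, which encodes the glutamine carrier SNAT5 of erythroid precursors, had the highest ratio of replicate 1 to the others among members with counts in each library. It was read at 9.72, 0.214 and 0.380 CPM, so replicate 1 held 32.8 times the mean of the others, with 3 and 5 counts in replicates 2 and 3. It was not separated from 1 CPM (edgeR adjusted p = 0.0741) and lay above it without replicate 2 (2.07e-05) without replicate 3 (0.00176), with mitochondrial genes left out (0.0456) or with no filter on low counts (0.0429). For comparison, 8 erythroid markers summed to 3770, 51.9 and 265 CPM, 23.8 times as much in replicate 1, with all 8 highest there and Epor at 0 in replicate 2. The 10 macrophage markers summed to 1726, 112 and 314 CPM, 8.11 times as much in replicate 1, all 10 highest there and Vsig4 at 0 in replicate 2. Slc7a2, Slc1a3, Slc43a1, Slc43a3 and Slc7a8 stood 9.15, 8.06, 7.15, 6.63 and 6.16 times higher in replicate 1. Other measures were also highest in replicate 1. B cell markers stood 2.18 times higher there (398, 151 and 213 CPM, 7 of 7 highest there) and melanoma markers 4.09 times higher (6.76, 0.571 and 2.73 CPM, 5 of 5, with 4 of them at 0 in replicate 2: Dct, Mlana, Tyrp1 and Sox10). Mitochondrial genes took 17.8%, 6.22% and 13.1% of the counts, and 3.54%, 21.2% and 12.3% of genes had no count. The part of any of these in the led members was not tested.

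**Figure D3:**
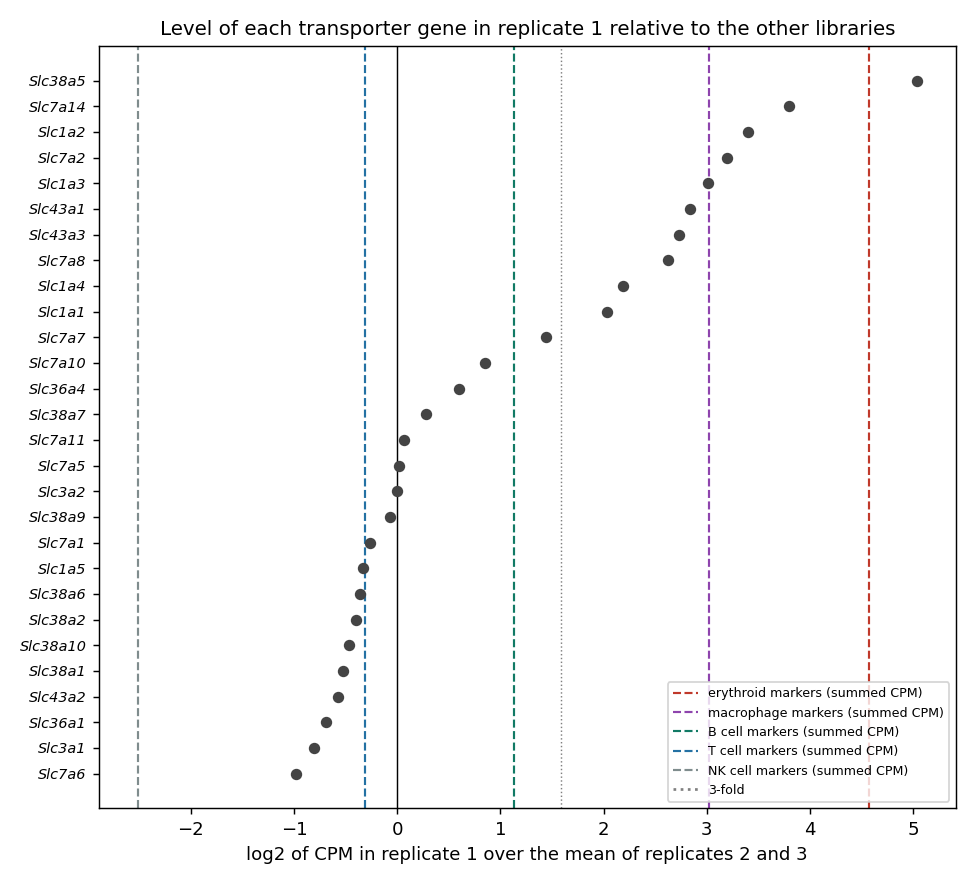
The log2 ratio of CPM in replicate 1 to the mean of replicates 2 and 3 for the 28 members with a mean of at least 1 CPM, 1 point per gene, with dashed lines for summed markers of 5 cell types and a dotted line at 3-fold. The abundant carriers lie near 0 or slightly below, in the region of the T cell line. Monocyte markers, not drawn, had a log2 ratio of -0.037. To the right of the 3-fold line lie 10 genes, up to Slc38a5 at 5.03.

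The abundant carriers did not share this pattern. They were picked by the same values, and a call above 50 CPM favours genes that are even between libraries. The contrast is thus partly fixed by that choice. Ratios of all genes at such levels are not given here. Among the 7 highest members the ratio of replicate 1 to the mean of the others ran from 0.673 for Slc43a2 to 0.996 for Slc3a2. Summed T cell markers, at 0.807, and summed monocyte markers, at 0.975, both lay in this range. The other marker lists lay outside it, and stem and progenitor genes, at 0.656, were nearest. Whether any of these cell types carried the 7 genes was not tested. Slc7a5 had a ratio of 1.01. Among the 28 members with a mean of at least 1 CPM the lowest ratio was that of Slc7a6, at 0.507.

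Genes that sense amino acids were measured in the same libraries. The amino acid branch of mTORC1, the complex that couples nutrients to growth, had 29 genes measured. All 29 lay above 1 CPM, 8 above 50 CPM and 17 below 50 CPM. Among all genes tested, 68.6% lay above 1 CPM, 19.9% above 50 CPM and 66.7% below 50 CPM. Sesn1, a member of the sestrin family of stress-induced proteins, was read at 125, 97.1 and 133 CPM. Mtor itself was read at 87.8, 152 and 115 CPM, and lay above 50 CPM (edgeR adjusted p = 3.64e-04). At the lower end stood Rragd, a Rag GTPase, with a mean of 6.73 CPM, and Kptn, a KICSTOR subunit, with a mean of 6.30 CPM.

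In the list of the GCN2 kinase and ATF4, 15 of 18 genes lay above 1 CPM, 3 above 50 CPM and 12 below it. Among all genes tested these shares were 68.6%, 19.9% and 66.7%. Atf4 was read at 118, 115 and 137 CPM, and Ppp1r15a, the phosphatase subunit that ends the response, at 150.3, 40.2 and 88.9 CPM. Eif2ak4, which encodes GCN2, was even at 36.1, 38.9 and 33.7 CPM. The list's lowest genes by mean CPM were Asns and Chac1. Next above them stood Atf5 at 2.21 CPM, Trib3 at 3.42 CPM and Atf3 at 4.14 CPM. Some genes of the list known as targets of ATF4 stood higher, such as Ddit3 at a mean of 20.9 CPM and Psat1 at 15.8 CPM. All of these but Asns and Chac1 were named after their values were seen. Asns, asparagine synthetase, was read at 4.54, 0.357 and 1.52 CPM and Chac1 at 2.22, 0.357 and 1.52 CPM, and neither was separated from 1 CPM (edgeR adjusted p = 0.226 and 0.72).

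A further 24 carriers of amino acids and related substrates were set beside the same shares of all genes (68.6%, 19.9% and 66.7%). Of these carriers, 19 lay above 1 CPM, 2 above 50 CPM and 21 below it. The 2 above were Slc6a6, the taurine carrier, at 100.2, 130 and 103 CPM, and Slc25a12, a mitochondrial aspartate and glutamate exchanger, at 58.1, 72.0 and 66.5 CPM. Slc6a8 and Slc6a13 were lowest, with 20 and 15 counts in all. In the list of tryptophan breakdown, 4 of 6 genes tested lay above 1 CPM and 5 below 50 CPM. Among all genes tested, 68.6% and 66.7% did so. Afmid was read at 20.9, 26.4 and 14.2 CPM and Kmo at 22.7, 13.8 and 10.5 CPM. Ido1, the enzyme that opens this pathway, had 20, 12 and 7 counts, or 2.11, 0.856 and 0.532 CPM, and Ido2 had 13, 0 and 0. Tdo2 and Il4i1 had 9 and 2 counts, all in replicate 1. Slc7a5, a light chain that imports tryptophan, stood at a mean of 36.9 CPM in libraries where Ido1 averaged 1.17 CPM. Per kilobase, Slc7a5 averaged 10.5 CPM and Ido1 0.75 CPM. Uptake of tryptophan was not measured.

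**Figure D4:**
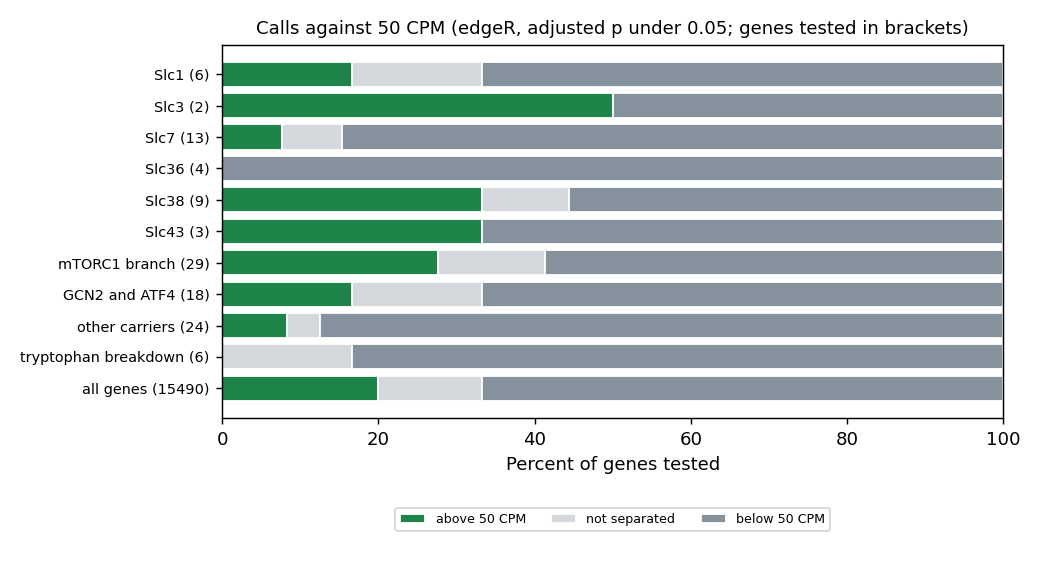
Percent of the genes tested in each Slc family, in 4 lists of related genes and among all genes that lay above 50 CPM, below it, or were not separated from it in edgeR's test, with the number tested in brackets. The mTORC1 branch has 8 of 29 genes above 50 CPM, against 19.9% of all genes. Slc38 has 3 of 9, with 2 members not tested, Slc43 has 1 of 3 and Slc3 has 1 of 2. Slc1 has 1 of 6 and Slc7 has 1 of 13. The bars of Slc36 and tryptophan breakdown have no part above 50 CPM.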

How the data were processed

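Per the submitters' processing notes, the authors used bcl2fastq, STAR 2.75, featureCounts and DESeq2 1.18.1 with build mm10. The deposited values are raw whole-number counts per gene in 3 libraries, with a gene length in bases. Annotation, strand setting and filters are not given in the sources used here. The members and gene lists were chosen with earlier results of these data known.

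CPM was computed from the counts with TMM factors (1.04, 1.01 and 0.950) in edgeR 4.0.16, and divided by gene length where genes are compared. Genes with at least 10 counts in sum were fitted with an intercept alone. The quasi-likelihood F statistic was formed against the reference level entered through the offsets (two-sided, Benjamini-Hochberg over all genes, threshold 0.05). SE are of the fitted log2 level. Differences between members, with 0.5 added to each count, were tested by exact sign flips over libraries. The code was tested on simulated data.

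All 39 members are reported. Those with a mean of at least 1 CPM are given by library, and of other lists the 2 highest and 2 lowest and preset genes. A gene that this rule names is not reported here. All 39 matched RefSeq by Entrez identifier. Exon overlaps came from GENCODE M21. A count of 0 allows 3 counts, and such limits cover counting error only. Alternatives were RLE or no normalization factor, the 2 mitochondrial genes of the table left out, other filters, robust empirical Bayes, DESeq2 1.42.0, limma 3.58.1, a reference per kilobase, and leaving out each library.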

Additional observations from a re-analysis of the deposited data

How the results depend on the processing

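The number of members above 50 CPM was 7 under each other normalization, filter and tool tried, and fell to 2 (Slc38a2 and Slc1a5) against 20 CPM per kilobase, where the related genes fell from 13 to 8. Leaving out 1 library gave 20 to 26 members above 1 CPM, 6 to 7 above 50 CPM and 15 to 28 below it. With edgeR's own expression filter, 12 of 22 members tested lay below 50 CPM. With 2 times in place of 3, replicate 3 led 1 member. Replicate 1 led 17 members, and 8 with at least 10 counts required in the others together, where fewer are tested. Not scaled by length, Slc3a2 minus Slc7a5 was 0.89 log2 units, Slc1a5 minus Slc38a2 was -0.97, and Slc38a2 minus Slc38a1 (-0.35) and Slc38a9 minus Slc36a1 (0.70) changed sign. Leaving out 1 library, Slc38a9 minus Slc36a1 ran from -0.26 to 0.063 (without replicate 2) and Slc7a5 minus Slc7a6 from -0.024 (without replicate 1) to 0.60. Relative to a reference per kilobase, these members changed sign: Slc38a10 (-0.12), Slc43a2 (-0.36) and Slc7a1 (-0.73) at the high reference, and Slc7a11 (-0.45), Slc1a4 (-0.79), Slc7a2 (-1.10), Slc1a1 (-1.83), Slc1a2 (-2.18) and Slc7a14 (-2.47) at the low one. Against 1 CPM, limma turned Slc1a1 (-0.21) and Slc7a14 (-1.11), and leaving out 1 library gave -0.040 to 2.37 for Slc7a2, -0.98 to 0.43 for Slc1a1 and -0.67 to 1.97 for Slc1a2, each lowest without replicate 1. Against 50 CPM, Slc38a9 turned with mitochondrial genes left out (0.17) and ran from -0.14 without replicate 2 to 0.10 without replicate 3. A reference per kilobase moves with gene length, and the causes of the other changes were not tested. No paired analysis was possible because the labels give 1 group. Depth limits the 11 members with a mean under 1 CPM, which had at most 29 counts in sum.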
